A study of Rattus norvegicus with 15 samples.

Results

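MiR-101a and miR-101b are the rat members of the miR-101 family, a pair of microRNAs with the same seed. They were picked by name among the 350 miRNAs of a rat liver miRNA array, because each had its highest group level at 24 h after surgery. The levels after surgery therefore chose these 2 miRNAs, and their changes with time are given below as a description without a test. The difference between diets was not used in the choice and was tested.

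MicroRNAs are short RNAs that guide Argonaute proteins to messenger RNAs, mostly through pairing of the seed near their 5′ end, and lower the output of these messages. MiR-101 is best known, from work in human cells, for pairing with the message of EZH2, the catalytic subunit of Polycomb repressive complex, which places a silencing methyl mark on histones. In human hepatocellular carcinoma miR-101 is often reduced, and it is studied as a restraint on growth. After partial hepatectomy (PHx) the hepatocytes of the remaining rat liver re-enter the cell cycle and reach their first wave of DNA synthesis within about a day, and chronic ethanol feeding is known to delay this response.

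The mature sequences are shown because they define the family and because the members differ so little. RefSeq (build GRCr8) places the guide strand of miR-101a at chr5:121081691-121081711 on the minus strand, inside the long non-coding RNA gene LOC120102934 of the same strand. The guide strand of miR-101b lies at chr1:236273982-236274002 on the plus strand, in the gene Mir101-2, which lies inside the protein-coding gene Rcl1 of the same strand. MiR-144, at chr10:63459446-63459465 on the plus strand, is shown as the nearest relative by seed. Capitals mark bases 2 to 8, the seed.
rno-miR-101a-3p: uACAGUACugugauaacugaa
rno-miR-101b-3p: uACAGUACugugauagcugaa
rno-miR-144-3p: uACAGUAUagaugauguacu

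The miR-101a and miR-101b guide strands were 21 bases long and differed at 1 position, A16G, counted from the 5′ end with the base of miR-101a first. Bases 2 to 8 were shared by these 2 of the 693 mature rat sequences in the table and by no other, and bases 2 to 7 were shared by 3, the third being miR-144. The hairpins, in which capitals mark the guide strand, come from separate genes and differ outside it, with 5 differing positions between the opposite (5p) strands.
Mir101a hairpin: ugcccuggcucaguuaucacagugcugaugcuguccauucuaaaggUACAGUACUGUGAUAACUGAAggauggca
Mir101-2 hairpin: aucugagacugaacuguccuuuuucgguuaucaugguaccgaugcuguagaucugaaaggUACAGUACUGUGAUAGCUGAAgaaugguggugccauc

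The array names carry no arm, and the names miR-101a and miR-101b were taken as the guide (3p) strands because the array lists miR-101a* as a separate entry. MiR-101a*, the opposite strand of miR-101a, was detected on 0 of 15 arrays. How far each probe also binds the other member, which differs by a single base, cannot be told apart here, because the probe sequences were not analysed.

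Liver miRNA was measured on 15 single-colour arrays, each loaded with RNA pooled from 4 rats. One diet group had been fed ethanol chronically (EtOH), and its controls were pair-fed with carbohydrate in place of ethanol (CHO). Liver was freeze-clamped at 1, 6, 12 or 24 h after PHx and at the operation itself, which gives the arrays called before PHx. There were 4 EtOH and 4 CHO arrays after PHx, 1 per diet and time, and 3 EtOH and 4 CHO arrays before PHx. There is no sham-operated group among these arrays. The sources used here give no strain, sex or age. Per the labels, 7 of the 8 pools have an array after and an array before PHx from the same 4 animals, and an array before PHx of the EtOH 24 h pool was not analysed here. The 1 h and 6 h pools of each diet share 1 animal.

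Signals below are scaled probe intensities on a linear scale, and differences are in log2 of the scaled signal. The unscaled 75th percentile ranged over the arrays between 236.5 and 515.5, and 108 to 131 miRNAs were detected per array. The array EtOH before PHx replicate 3 had the lowest percentile and the least even spots, with a median coefficient of variation between spots of 36.6%, against 6.75% to 8.62% on the other arrays. The CHO 12 h array correlated least with any other array (highest r 0.970). MiR-122, miR-192 and miR-194, which mark hepatocytes, were detected on all arrays, with a summed signal of 35960 to 41950 in EtOH and 36150 to 42880 in CHO livers before PHx. In these bulk samples, fewer cells of a type and less RNA per cell cannot be told apart.

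Both members were detected on all 15 arrays with each of their 2 probes. The brighter probe stood for each miRNA, and brightness was not compared between the members because they have different probes. Each array value of the brighter probe was a mean over 8 to 10 spots for miR-101a and 9 to 10 spots for miR-101b, with a median standard error from spots of 0.024 and 0.027 log2 units.

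MiR-101a and miR-101b were higher at 24 h after PHx than at the earlier times in both diets. The scaled signal of miR-101a was 66.5, 64.5, 75.7 and 92.7 in EtOH livers at 1, 6, 12 and 24 h after PHx, against 74.4, 58.1 and 92.3 in EtOH livers before PHx. In CHO livers it was 83.6, 79.3, 75.1 and 95.9 at 1, 6, 12 and 24 h, against 75.6, 77.2, 72.7 and 94.7 before PHx. The CHO 24 h array was the highest of the 15 by a narrow margin, and the EtOH 24 h array ranked 3 of 15. An EtOH and a CHO array from before surgery were about as high, so the 24 h values were not clear of the range before PHx.

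The scaled signal of miR-101b was 280.9, 276.9, 298.4 and 362.7 in EtOH livers at 1, 6, 12 and 24 h, against 310.4, 246.7 and 290.7 before PHx. In CHO livers it was 297.6, 283.9, 273.8 and 340.0 at these times, against 281.1, 282.8, 259.4 and 311.9 before PHx. Here both 24 h arrays were the highest of all 15, above every array from before surgery, and at 1, 6 and 12 h every array lay within the range seen before PHx.

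**Figure D1:**
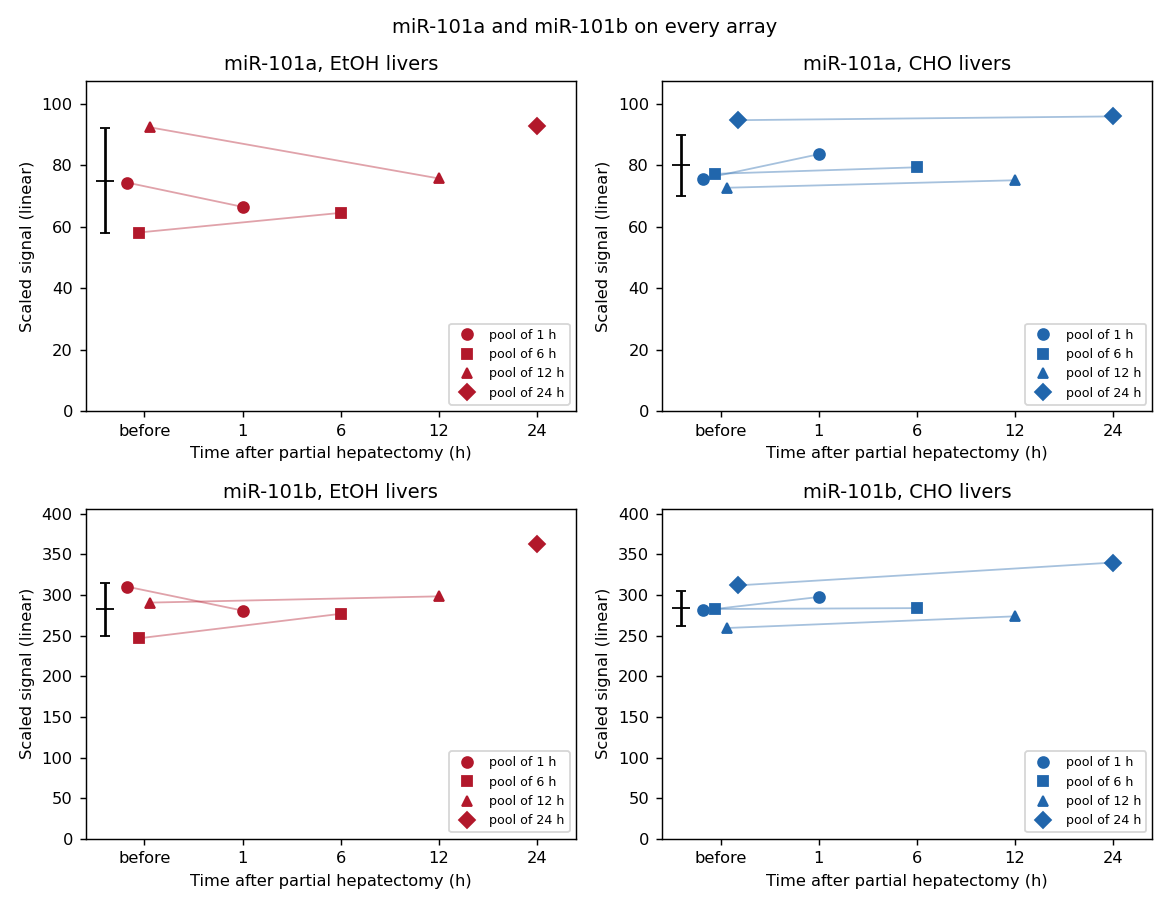
Scaled signal (linear scale, from 0) of miR-101a in the upper and miR-101b in the lower panels, by time after partial hepatectomy in hours, with EtOH livers on the left and CHO livers on the right. Each point is 1 array of 4 pooled animals, lines join arrays of the same pool, and black bars give the mean and SD of the arrays before PHx (n = 3 EtOH and 4 CHO). The 24 h diamonds are high in every panel, and in CHO livers the diamond before PHx, from the same animals, is high as well.

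Averaged over the diets, miR-101a at 24 h differed from before PHx by 0.30 (SE 0.155) and miR-101b by 0.32 (SE 0.0988), which placed them 21st and 20th from the top among 134 tested miRNAs with a median of 0.02. At 1, 6 and 12 h the differences were -0.04, -0.10 and -0.02 for miR-101a and 0.03, -0.01 and 0.02 for miR-101b. By diet, the 24 h difference was 0.33 in EtOH and 0.27 in CHO livers for miR-101a, and 0.37 in EtOH and 0.26 in CHO livers for miR-101b. Of the 134 miRNAs, 13.4% (16 higher and 2 lower) passed limma's test at 24 h after Benjamini-Hochberg adjustment, and nothing is read from that share for the members because this contrast chose them.

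The 10 combinations of diet and time were put in order of their mean log2 signal. Neighbours in such an order tend to lie close, so small steps do not show that the whole range is narrow. For miR-101a the mean log2 signal spanned 6.01, in EtOH livers at 6 h, to 6.58, in CHO livers at 24 h. None of the 9 steps between neighbours in that order exceeded the spread of 0.249 between arrays before PHx (pooled SD, 7 arrays), the widest step being 0.15. For miR-101b it spanned 8.10, in CHO livers at 12 h, to 8.50, in EtOH livers at 24 h. A single step of 9 exceeded the spread of 0.137, the one of 0.19 that separated CHO livers at 24 h from EtOH livers at 12 h, next below. The levels at 24 h chose the members, and each 24 h value is 1 array. This step is therefore a description and not support for a rise at 24 h.

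Comparing each pool with its own array before PHx gave a smaller 24 h change. In the CHO 24 h pool, the only 24 h pool with both arrays here, miR-101a was 95.9 at 24 h, against 94.7 before PHx in the same animals (0.02, or 1.01-fold). MiR-101b was 340.0 at 24 h, against 311.9 before PHx in the same animals (0.12, or 1.09-fold). Both differences are smaller than the spread between arrays before PHx. That spread also holds differences between pools, so it does not measure the error of a change within a pool.

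Set against the other 3 CHO arrays before PHx, the same 24 h array was higher by 0.35 for miR-101a and 0.31 for miR-101b. The difference between these readings lies in the CHO 24 h pool's own array before PHx, which was already 0.33 above the other 3 for miR-101a and 0.19 above them for miR-101b. These shifts ranked 6th and 14th of 134 miRNAs, whose median shift was -0.04. In the same pool the signed change of 80 miRNAs was above that of miR-101a and of 56 above that of miR-101b, and the median change was 0.06. The summed signal of the erythroid markers miR-451 and miR-144 in this pool was 354.8 at 24 h and 1230 before PHx, against 617.5 to 1025 in the other CHO pools before PHx, and its part in the result was not tested.

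Over all 7 pools with both arrays, the change after PHx had no common direction at the early times. MiR-101a changed by -0.16, 0.15 and -0.29 in the EtOH pools of 1, 6 and 12 h and by 0.14, 0.04, 0.05 and 0.02 in the CHO pools of 1, 6, 12 and 24 h. MiR-101b changed by -0.14, 0.17 and 0.04 in the EtOH pools and by 0.08, 0.01, 0.08 and 0.12 in the CHO pools. With these brighter probes the 4 CHO pools each lay at or slightly above 0 for both members, and the EtOH pools lay on both sides of it. With the other probe miR-101a was at -0.01 in the CHO 6 h and CHO 24 h pools. That probe put miR-101b at -0.03 in the CHO 6 h pool. The value of -0.29 for miR-101a in the EtOH 12 h pool has the uneven array, EtOH before PHx replicate 3, as its baseline. With the pool as a fixed term, a fit with 2 residual degrees of freedom, the 24 h change was -0.07 for miR-101a and 0.11 for miR-101b. The EtOH 24 h pool, which has no baseline here, adds nothing to these values. They combine the change in the CHO 24 h pool with a diet term fitted on the pools of 1, 6 and 12 h.

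**Figure D2:**
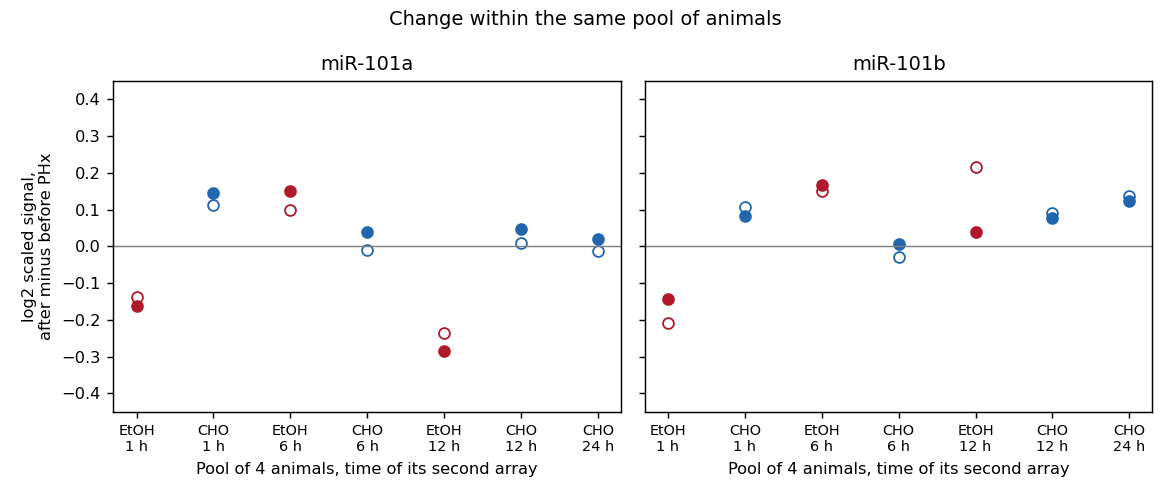
Change of miR-101a (left) and miR-101b (right) within each of the 7 pools with an array after and an array before PHx, in log2 of scaled signal, with EtOH pools in red and CHO pools in blue. Filled points are the brighter probe and open points the other probe. In the CHO 24 h pool the brighter probes sit at 0.02 and 0.12.

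The arrays were on 2 slides, the 1 h and 6 h sets on the first and the 12 h and 24 h sets on the second, each with its own arrays before PHx. Within the second slide the 24 h difference was 0.11 for miR-101a and 0.29 for miR-101b, and with slide as a block the values were 0.14 and 0.29. For miR-101a the difference over all arrays, 0.30, was thus well above either of these values, whereas that of miR-101b was close to them. The 24 h difference of miR-101a was also lower with quantile normalization (0.12), normexp (0.13) and the authors' deposited values (0.14), where that of miR-101b was 0.32, 0.28 and 0.34. In the authors' deposited table miR-101a was 6.80 (log2) in EtOH livers at 24 h, in CHO livers at 24 h and in the CHO 24 h pool before PHx. It was also 6.80 in EtOH before PHx replicate 1 and highest, at 6.88, in the uneven EtOH before PHx replicate 3. So miR-101a was not highest at 24 h in that table. MiR-101b in the authors' deposited table was 8.81 in both livers at 24 h. It was 8.67 in the CHO 24 h pool before PHx and in EtOH before PHx replicate 1.

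The diet comparison asks whether chronic ethanol feeding changed miR-101 in the resting liver and after surgery. For neither member did the difference between EtOH and CHO livers pass the test, before or after PHx. Before PHx miR-101a averaged 74.9 ± 17.1 in EtOH livers (SD, n = 3) and 80.0 ± 9.93 in CHO livers (SD, n = 4). MiR-101b averaged 282.6 ± 32.6 in EtOH and 283.8 ± 21.6 in CHO livers. The ranges of the diets overlapped for both members.

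In limma's fit over all 15 arrays the diet difference before PHx was -0.11 for miR-101a (95% interval -0.44 to 0.21, adjusted p 0.656). For miR-101b it was -0.01 (95% interval -0.22 to 0.20, limma adjusted p 0.992). Differences between EtOH and CHO passed that test for 15.7% of the 134 miRNAs (4 higher and 17 lower in EtOH) and for 0 of the 2 members, whose unadjusted limma p-values were 0.460 and 0.919. The p-values rest on pools, and 5 of the 8 residual degrees of freedom come from arrays before PHx.

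The EtOH arrays before PHx were themselves uneven for miR-101a. Replicate 3, at 92.3, was above the 2 others at 74.4 and 58.1, and without it the diet difference was -0.28 (limma adjusted p 0.181), whereas without replicate 2 it was 0.06 (limma adjusted p 0.839). Within the first slide the difference was -0.22 and within the second 0.15 for miR-101a, and -0.03 and 0.03 for miR-101b. As a block, slide left a difference of -0.07 for miR-101a and -0.004 for miR-101b. Without any scaling both members were lower in EtOH livers before PHx, by limma's adjusted p (-0.64, adjusted p 0.0176, and -0.54, adjusted p 0.0343), in a setting where the median of all miRNAs also lay at -0.53. Over its 32 alternatives the limma adjusted p of this contrast lay between 0.0176 and 0.985 for miR-101a and between 0.0343 and 1 for miR-101b.

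After PHx miR-101a averaged 74.9 ± 12.9 in EtOH livers and 83.5 ± 8.97 in CHO livers (SD over the 4 times, n = 4 each). MiR-101b averaged 304.7 ± 39.8 in EtOH and 298.8 ± 29.1 in CHO livers. The diets overlapped again. The fitted difference was -0.17 for miR-101a (95% interval -0.47 to 0.13, limma adjusted p 0.465) and 0.02 for miR-101b (-0.17 to 0.22, limma adjusted p 0.850), and 7.46% of the 134 miRNAs passed this contrast. Of the 2 members 0 passed, with unadjusted limma p-values of 0.247 and 0.783.

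Within the first slide the diet difference after PHx was -0.32 for miR-101a and -0.06 for miR-101b, and within the second it was -0.02 and 0.11. Slide as a block left it at -0.17 and 0.02. Without the CHO 12 h array it was -0.23 and -0.01. Over the 32 alternatives the limma adjusted p lay between 0.105 and 1 for miR-101a and between 0.159 and 1 for miR-101b.

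Whether the diet difference itself changed after surgery was tested as the diet difference after PHx minus that before PHx. This was -0.05 for miR-101a (95% interval -0.49 to 0.39) and 0.03 for miR-101b (-0.25 to 0.32), each with a limma adjusted p of 0.974. This contrast was passed by 0% of all 134 miRNAs in limma, 9 of which had an unadjusted p under 0.05, and neither member was among these 9.

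At single times, with 1 pool per diet, miR-101a differed between EtOH and CHO by -0.33, -0.30, 0.01 and -0.05 at 1, 6, 12 and 24 h. MiR-101b differed by -0.08, -0.04, 0.12 and 0.09. The adjusted p-values of limma's fit of 10 cells were between 0.674 and 1 for miR-101a and between 0.930 and 0.982 for miR-101b, in a fit where lone arrays are assumed to vary like those before PHx. The intervals were wide, for example -1.10 to 0.44 for miR-101a and -0.53 to 0.36 for miR-101b at 1 h. Over all miRNAs, 0.746%, 0%, 3.73% and 0% passed at 1, 6, 12 and 24 h, with 18 and 7 miRNAs at an unadjusted limma p under 0.05 at 6 and 24 h.

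**Figure D3:**
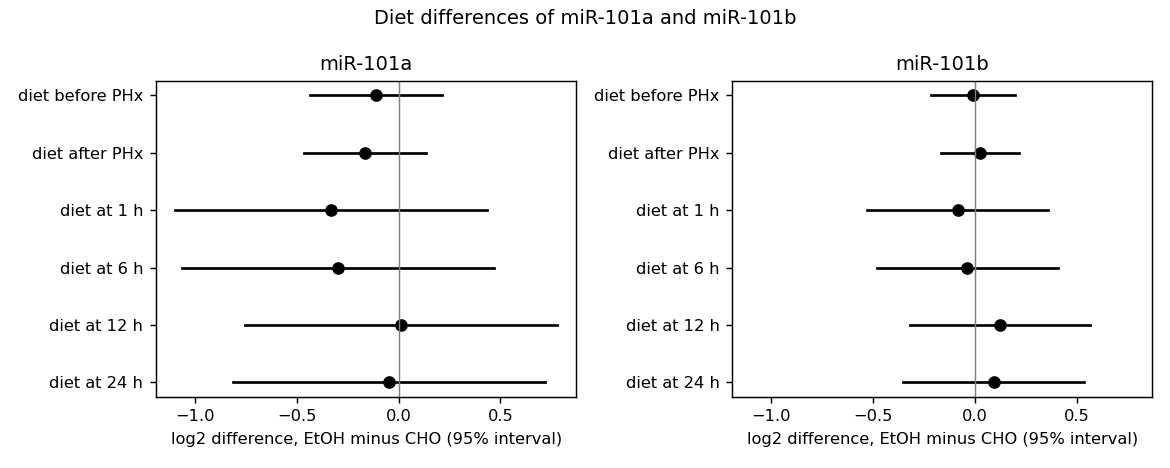
Diet difference (EtOH minus CHO, log2 of scaled signal) of miR-101a on the left and miR-101b on the right, before PHx, averaged over the times after PHx, and at each single time. Points are limma estimates and lines their 95% intervals, and every interval includes 0.

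The members moved together over arrays. After PHx their ratio was lower in EtOH than in CHO livers in the main values, but this depended on how the values were computed. The log2 signals of miR-101a and miR-101b correlated over the 15 arrays with Pearson r = 0.779, or 0.827 over 14 arrays without EtOH before PHx replicate 3. Under other ways of computing the values r lay between 0.600, with the authors' deposited values, and 0.923, without scaling. This is a description, since the arrays share scaling, slides and pools. How far binding of each probe to the other member enters the correlation or the ratio was not tested. The difference miR-101a minus miR-101b within an array, which scaling by a single factor cannot change, was chosen as a measure after the values were seen and has no test here.

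It was -2.08, -2.10, -1.98 and -1.97 in EtOH livers at 1, 6, 12 and 24 h, against -1.83, -1.84, -1.87 and -1.83 in CHO livers. All 4 EtOH arrays lay below all 4 CHO arrays. The means were -2.03 ± 0.07 in EtOH and -1.84 ± 0.02 in CHO livers (SD, n = 4 each), a difference of -0.19. How many other pairs of miRNAs separate the diets in this way was not counted, so the separation cannot be called particular to miR-101. Before PHx miR-101a minus miR-101b was -2.06, -2.09 and -1.66 in EtOH livers, against -1.90, -1.87, -1.84 and -1.72 in CHO livers. There 2 of 3 EtOH arrays were below every CHO array, and the third, the uneven replicate 3, was above them. The difference between the diets' means before PHx was -0.10 in the main values and 0.07 with normexp.

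The lower ratio in EtOH livers after PHx was seen with all 4 pairings of the members' probes, with differences of -0.14 to -0.19. In each pairing 4 of 4 EtOH arrays were below all CHO arrays. The pairings reuse the same arrays and probes, so their agreement is not independent support. With normexp background correction the ratio after PHx was lower as well (-0.10, 4 of 4). Under quantile normalization the difference was -0.04 with 1 of 4 EtOH arrays below all CHO arrays, and in the authors' deposited table it was 0.08 with 0 of 4, so its direction depends on the values used.

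**Figure D4:**
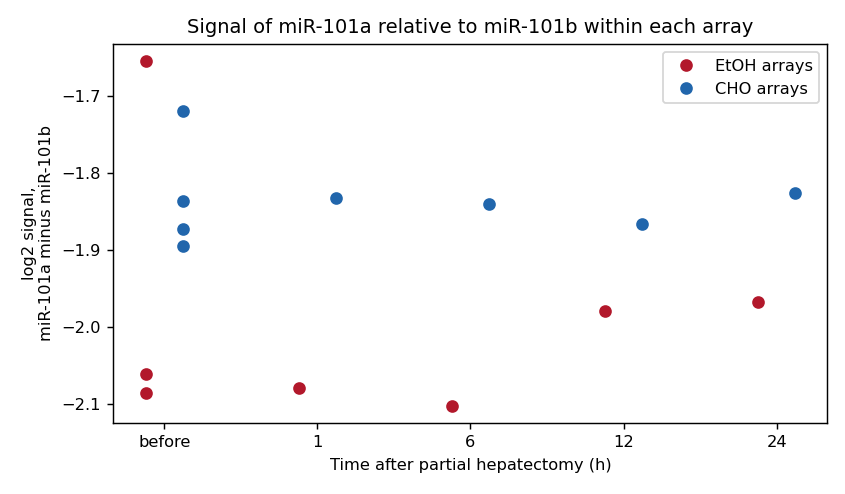
Log2 signal of miR-101a minus that of miR-101b within each of the 15 arrays, by time after partial hepatectomy, with EtOH arrays in red on the left of each time and CHO arrays in blue on its right. After PHx the EtOH arrays lie between -2.10 and -1.97 and the CHO arrays between -1.87 and -1.83.

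Each member's 2 probes gave similar profiles over arrays, with r = 0.991 for miR-101a and 0.941 for miR-101b over 15 arrays. With the dimmer probe the 24 h difference was 0.29 for miR-101a and 0.38 for miR-101b, and the diet difference before PHx was -0.12 and -0.07. The dimmer probe put the change of miR-101a within the CHO 24 h pool at -0.01 and that of miR-101b at 0.14. On EtOH before PHx replicate 3 the dimmer probes had a coefficient of variation between spots of 20.2% for miR-101a and 36.0% for miR-101b, above the 7.64% and 6.96% reached on any other array.

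MiR-144, which shares bases 2 to 7 and is known from red blood cell precursors, was near background. It was detected on 6 of 15 arrays, with signals of 2.99 to 17.6. The highest value was in the CHO 24 h pool before PHx and the lowest in the same pool at 24 h.

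The miRNAs whose levels ran most like the mean of the members over the 15 arrays were miR-29b (r = 0.799), miR-19a (r = 0.779), miR-106b (r = 0.665), miR-126* (r = 0.635) and miR-186 (r = 0.594), of 132 ranked. MiR-29b is known for pairing with collagen messages, miR-19a and miR-106b belong to related clusters known for promoting proliferation, and miR-126* is a strand of the endothelial miR-126 hairpin. All 5 were detected on every array except miR-19a, which was detected on 11. Over 6 ways of computing the values, miR-29b was among the top 5 in 6, miR-19a in 5 and miR-106b in 4, and miR-126* and miR-186 in 2 each. Outside these 5, miR-140 was among the top 5 in 3 ways, and miR-30e and miR-19b in 2 each.

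At 24 h these 5 differed from before PHx by 0.46 (miR-29b), 0.90 (miR-19a), 0.51 (miR-106b), 0.21 (miR-126*) and 0.22 (miR-186). Within the CHO 24 h pool alone miR-29b changed by 0.23, miR-19a by 0.45 and miR-106b by 0.33, whereas miR-126* changed by -0.05 and miR-186 by 0.11. The pool's array before PHx was 0.49 above the other CHO arrays before PHx for miR-19a, and 0.11 and 0.20 above them for miR-29b and miR-106b. These values are a description, because likeness to the members chose the 5 miRNAs.

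Other miRNAs reported to target Ezh2, mostly in human or mouse cells, did not pass the test in the diet contrasts or at 12 and 24 h. Of 16 on the list, 13 were tested, and miR-138, miR-124 and miR-217 were each detected on 0 arrays. By limma's adjusted p, 0 of the 13 passed in the diet contrast before PHx, 0 in that after PHx, 0 at 12 h and 0 at 24 h, where 2, 1, 1 and 1 had an unadjusted p under 0.05. Over all 134 miRNAs these contrasts were passed by 15.7%, 7.46%, 5.97% and 13.4%, and 35, 41, 21 and 30 had an unadjusted p under 0.05. The median difference of the 13 between EtOH and CHO was -0.08 before PHx and -0.06 after it, beside -0.08 and -0.05 over all 134, and at 24 h it was 0.01, beside 0.02.

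Among these 13, the lowest adjusted p-values for diet before PHx were those of the miR-26 family, which is abundant in liver and reduced in many human liver tumours. MiR-26b differed by -0.29 (limma adjusted p 0.0534) and miR-26a by -0.20 (limma adjusted p 0.0619) between EtOH and CHO livers. At 24 h miR-26a was at -0.17 (limma adjusted p 0.180) and miR-25, a member of the miR-106b cluster, at 0.20 (limma adjusted p 0.364). MiR-214, which is also on the stellate cell list, was at 0.44 at 12 h (limma adjusted p 0.0802). The let-7 members of the list lay between -0.21 (let-7c) and 0.16 (let-7d) for diet before PHx.

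Marker miRNAs of liver cell types were read beside these results. For diet before PHx, 0 of 3 hepatocyte, 0 of 2 endothelial, 0 of 2 erythroid and 0 of 5 stellate and mesenchymal markers passed limma's test. Over all miRNAs 12.7% were lower in EtOH in this contrast. Of 3 leukocyte markers 1 was lower in EtOH (miR-142-3p, -0.50, limma adjusted p 0.0435). Of 3 epithelial markers 2 were lower in EtOH (miR-200a, -0.45, limma adjusted p 0.0167, and miR-200b, -0.57, limma adjusted p 0.0152).

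Before PHx the summed signal of the endothelial markers was 1064 to 1133 in EtOH and 1210 to 1300 in CHO livers. That of the stellate and mesenchymal markers was 524.7 to 594.1 in EtOH and 617.0 to 667.6 in CHO livers. Differences within this list went both ways, with miR-199a-3p at -0.47, miR-199a-5p at -0.37 and miR-143 at -0.24, but miR-145 at 0.24. The epithelial sum was 52.0 to 60.6 in EtOH and 71.3 to 87.7 in CHO livers. It covers the 5 list entries on the array, of which 2 or 3 were detected on each array before PHx. The endothelial, stellate and epithelial sums did not overlap between the diets. How many of all miRNAs also failed to overlap was not counted, so these sums are not set against the members. The leukocyte sums, 141.1 to 159.7 in EtOH and 160.3 to 193.9 in CHO livers, nearly touched, and the 159.7 is from the uneven replicate 3. The erythroid sums, 629.0 to 897.7 in EtOH and 617.5 to 1230 in CHO livers, overlapped.

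At 24 h the hepatocyte markers had a median difference of 0.004 and 0 of 3 passed. The neutrophil and macrophage miRNA miR-223 was higher (0.60, limma adjusted p 0.00875), the single leukocyte marker of 3 that passed, where 11.9% of all miRNAs were higher. The other two leukocyte markers did not pass, miR-150 at -0.37 (limma adjusted p 0.0794) and miR-142-3p at 0.08 (limma adjusted p 0.810). The leukocyte sum was 185.5 in EtOH and 175.0 in CHO livers at 24 h, against 141.1 to 159.7 in EtOH and 160.3 to 193.9 in CHO livers before PHx. The hepatocyte sum was 38340 in EtOH and 39650 in CHO livers at 24 h, inside the ranges before PHx. The part of these marker differences in the level of miR-101 was not tested.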

How the data were processed

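Total RNA from liver was labelled with Cy3 and hybridised to Agilent single-colour rat miRNA arrays, per the labels' protocols. The deposited scanner files hold spot intensity on a linear scale, background-subtracted by Agilent Feature Extraction 10.5.1.1 per the file headers (the submitters' processing notes name 10.7.3.1). The authors' deposited table holds log2 values, 1 per miRNA, whose method, scale and centring no source used here states. Medians of its columns were 0.106 to 1.10, and it holds only 233 distinct values, with the 13 highest identical on every array. It served as an alternative.

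Of 7000 spots per array, 938 probes for 350 miRNAs, those marked non-uniform or outlying were left out (2.38% in all, 2503 spots), and 1 saturated spot was kept. Mean probe signals were scaled so that every array had the same 75th percentile among the 185 probes detected on every array, floored at 9.61 and put on the log2 scale. A probe counted as detected where at least 0.5 of its spots were well above background. The brightest probe stood for a miRNA, and the 134 miRNAs detected on at least 3 arrays were tested.

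The 15 arrays were fitted together in limma 3.58.1 (R 4.3.3), with a diet term for arrays before PHx, another for those after it, and a term per time, leaving 8 residual degrees of freedom. Diet at single times used 10 cells of diet and time, with 5. Neither of these fits had a pool term, so arrays of the same animals were treated as independent. P-values were adjusted by Benjamini-Hochberg over the 134 miRNAs, and an adjusted p under 0.05 counted as passed. Scripts were tested on simulated data. The members, lists and tests were chosen with earlier results of these data known. The text names both members, miR-101a*, miRNAs sharing bases 2 to 7, the 5 most alike, and up to 4 list members per contrast. Other miRNAs that recurred among the 5 most alike in other settings are named too. The mean spot signal was not in the files, so normexp (offset 50) used the median spot signal. The animal identifiers pair arrays after and before PHx. Deviations from the group means within a pool correlated at -0.10, -0.06 and 0.16 in EtOH pools and at -0.02 to 0.24 in CHO pools. The number of arrays limits the precision. Alternatives covered scaling, values, background, floor, probes, filters, slide, pool and each array left out.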

Additional observations from a re-analysis of the deposited data

How the results depend on the processing

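The diet differences of both members kept their side of the threshold under every alternative but the lack of scaling, where they passed before PHx (-0.644 for miR-101a and -0.541 for miR-101b) and the median of all miRNAs moved to -0.529. Directions of differences this near 0 turned often, and the cause was not tested. For diet before PHx miR-101a turned to 0.061 with the authors' values, 0.109 with normexp and 0.154 within slide 2, and miR-101b to 0.051 with the percentile over all probes, 0.035 with normexp and 0.031 within slide 2. For diet after PHx miR-101a turned to 0.084 with all probes, where the median of all miRNAs moved to 0.188, and to 0.088 with the authors' values, and miR-101b to -0.032 with total gene signal and -0.060 within slide 1. The change of the diet difference after PHx turned for miR-101a to 0.136 (all probes), 0.037 (quantile), 0.486 (no scaling) and 0.027 (authors' values), and for miR-101b to -0.033 (within slide 1). At single times, with alternatives added after seeing the data, miR-101b turned to 0.085 at 1 h and 0.222 at 6 h with all probes and to 0.033 at 6 h with normexp. MiR-101a turned to 0.185 at 6 h (authors' values), to -0.012 at 12 h (normexp), and at 24 h to 0.209 (all probes), 0.041 (quantile) and 0.354 (no scaling). Of changes after PHx, miR-101b moved to 0.251 at 1 h and 0.222 at 12 h without scaling and to -0.193 at 12 h with all probes, and miR-101a to -0.276 at 12 h (quantile). With the pool as replicate block the 24 h change was -0.070 for miR-101a and 0.107 for miR-101b and the change of the diet difference was -0.035 for miR-101b, and with the pair-fed set as replicate block miR-101b had -0.012 for that change and 0.037 for diet before PHx. Neither block changed a call of either member. Leaving out each array in turn gave, for miR-101a and then miR-101b, -0.276 to 0.058 and -0.081 to 0.085 for diet before PHx, -0.226 to -0.112 and -0.009 to 0.060 for diet after PHx, and -0.225 to 0.109 and -0.060 to 0.105 for its change. This change turned to 0.001 for miR-101a without either 1 h array. Without CHO before PHx replicate 4, miR-101b turned to -0.012 for this change and to 0.037 for diet before PHx. For the 24 h change the range was 0.216 to 0.383 and 0.268 to 0.361, and over the settings of values and scaling it was 0.121 (quantile) to 0.417 (no scaling) for miR-101a and 0.275 (normexp) to 0.431 (no scaling) for miR-101b. The ratio of the members after PHx, chosen after seeing the data, moved to -0.044 (quantile), 0.080 (authors' values) and -0.105 (normexp). The number of miRNAs passing for diet before PHx, 4 higher and 17 lower in EtOH, was 1 and 1 (all probes), 4 and 5 (quantile), 0 and 76 (no scaling), 7 and 7 (authors' values) and 5 and 3 (normexp). For diet after PHx, 4 and 6 became 6 and 0, 5 and 1, 0 and 2, 6 and 1, and 0 and 0 in these settings, 7 and 20 with total gene signal, 8 and 12 without the floor, and 8 and 16 with the mean over probes. At 24 h, 16 higher and 2 lower became 11 and 0 (all probes), 7 and 5 (quantile), 6 and 0 (no scaling), 7 and 6 (authors' values), 10 and 0 (total gene signal) and 3 and 0 (normexp). At 12 h, 8 and 0 became 2 and 1 (all probes), 3 and 5 (quantile), 3 and 4 (authors' values) and 1 and 0 (normexp). For diet at 12 h, 0 and 5 became 6 and 6 (quantile), 1 and 1 (authors' values), 0 and 2 (normexp) and 0 and 3 (mean over probes). The precision is limited by 1 pool per diet and time after PHx and by the missing baseline of the EtOH 24 h pool.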
